A study of Sus scrofa with 10 samples.

Results

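The 8 genes *MTTP*, *LCAT*, *LIPC*, *PLTP*, *PON1*, *PON3*, *SCARB1* and *ABCA1* encode proteins that build lipoproteins in the liver or that form and remodel high density lipoprotein (HDL). They were followed in the liver of 10 female pigs of an Iberian x Landrace backcross, raised under the same feeding and management, of which 5 formed the H group and 5 the L group. The groups are the extremes of a first principal component of muscle fatty acid and carcass traits: H animals carried more polyunsaturated fatty acids in the muscle, and L animals more saturated and monounsaturated ones. Each animal gave 1 Affymetrix GeneChip Porcine array of liver RNA, so the animal is the replicate, and animals are named H1 to H5 and L1 to L5. Some animals of opposite groups are full sibs or share a mother, and this kinship was not modelled because the sources used here do not say which animals they are.

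A probe set is a group of short probes read as 1 transcript, and it was assigned to a gene when the platform annotation gave that gene's symbol and no other. Of the 8 genes, 7 had such a probe set, and *PON1* was not analysed here. The 7 genes were covered by 8 probe sets. The value of a gene is the average of those probe sets that averaged at least 4 on the log2 intensity scale, where the lowest value of an array is 2.19, and 7 of the 8 probe sets passed. The members are 7 of the 4730 genes measured in this way. *MTTP*, *LCAT*, *LIPC*, *PON3*, *SCARB1* and *ABCA1* each rest on 1 probe set. *PLTP* has 2, of which one lay between 2.19 and 2.22 in all animals and was left out, while the other, just above the limit, lay between 4.67 and 4.89. Intensities depend on the probes, so a level is compared between animals and never between genes.

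The liver exports triglycerides in very low density lipoprotein (VLDL), which is put together in the endoplasmic reticulum when lipid is loaded onto apolipoprotein B. HDL starts outside the cell as apolipoprotein A-I that takes up cholesterol and phospholipid from the cell surface, and it matures as enzymes and transfer proteins in the plasma turn its cholesterol into esters, move phospholipid between particles and hydrolyse its lipids. The liver takes cholesteryl ester back from HDL through a receptor on the hepatocyte, which makes the liver both the main source and a main end point of HDL.

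For all 7 measured members, H and L differed by less than the spread between animals. The limma fit over all genes gave no member an adjusted p under 0.05, nor any of the 4730 genes (0 genes, 0.0%), and at an unadjusted p under 0.05 there were 0 of the 7 members against 2.64% of all genes. The adjusted p was 0.985 for each of the 7. In H, 3 members (*PON3*, *LIPC* and *ABCA1*) had the higher mean and 4 (*MTTP*, *LCAT*, *PLTP* and *SCARB1*) the lower mean. The median absolute log2 difference of the members was 0.09, beside 0.10 over all genes, and the median signed difference was -0.04 for both. Of all genes, 62.8% had a difference below 0. The animals themselves differed more than the groups: the median SD over the 10 animals was 0.33 on the log2 scale for the members and 0.22 for all genes. RNA was taken from whole liver, in which fewer cells of a type and less RNA per cell cannot be told apart.

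**Figure D1:**
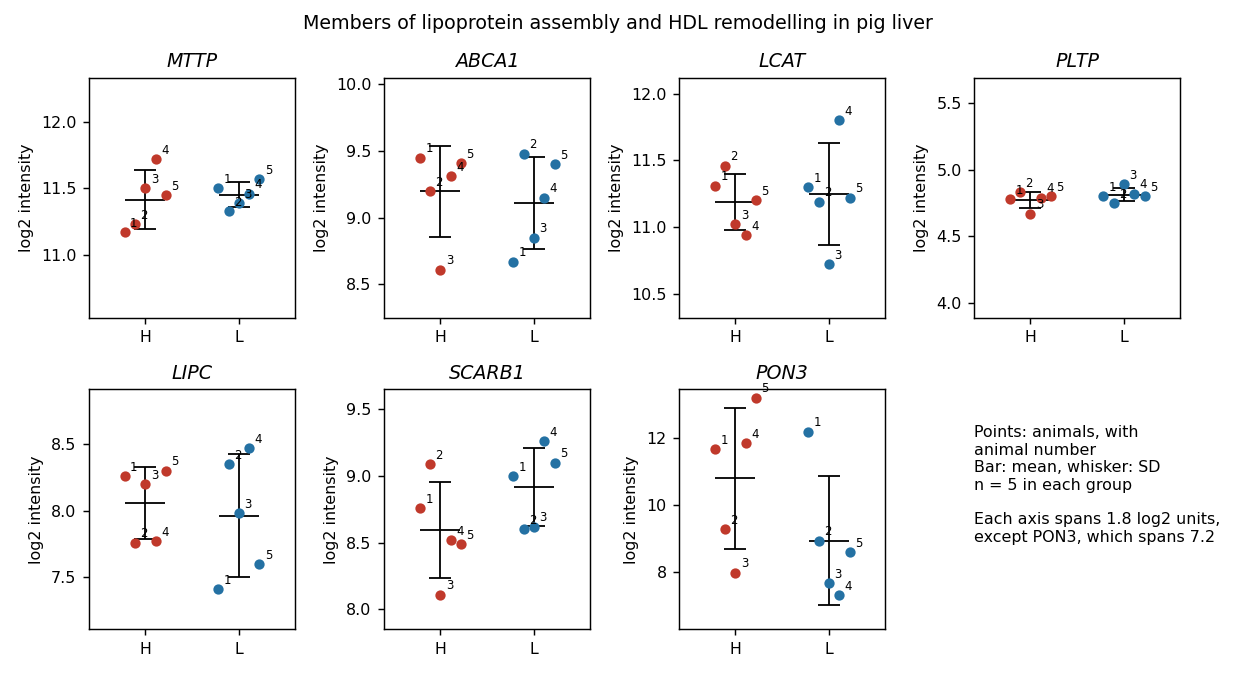
Log2 intensity (y axis) of the 7 measured members in each animal (points, with the animal number), in the H group (red) and the L group (blue), with the mean (long bar) and SD (whisker) of n = 5 animals. The H and L points overlap in every panel, and the PON3 axis is wider than the others because its animals span 5.92 log2 units.

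Assembly of VLDL was represented by *MTTP*, the microsomal triglyceride transfer protein that loads lipid onto apolipoprotein B. Its log2 intensity was 11.17, 11.23, 11.50, 11.72 and 11.45 in H1 to H5 and 11.50, 11.33, 11.39, 11.46 and 11.57 in L1 to L5. H1 and H2 were the lowest animals and H4 the highest, so the L animals lay inside the range of H. The means were 11.41 ± 0.22 in H and 11.45 ± 0.09 in L (SD, n = 5 for both groups). Their difference was -0.04 (standard error 0.11, limma adjusted p = 0.985), with a 95% confidence interval from -0.28 to 0.21. A change in H of more than 1.15-fold up or 1.22-fold down lies outside that interval. From the lowest to the highest animal *MTTP* spanned 1.47-fold.

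No partner of *MTTP* on the array passed the test either. *APOB*, the cargo protein of VLDL, had a log2 intensity of 15.16 ± 0.06 in the H animals and of 15.15 ± 0.06 in the L animals (SD, n = 5 for both). They lay 0.01 apart, with a standard error of 0.07 and a limma adjusted p of 0.997. These values are close to the top of the scale, since the arrays ended between 15.86 and 16.00. *P4HB*, the protein disulfide isomerase that forms the other subunit of the transfer complex, was not analysed here.

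HDL formation starts with *ABCA1*, the membrane transporter that hands cholesterol and phospholipid to apolipoprotein A-I. The log2 values of *ABCA1* were 9.45, 9.20, 8.61, 9.31 and 9.41 in H1 to H5 and 8.67, 9.48, 8.85, 9.15 and 9.40 in L1 to L5. Each group held both low and high animals: H3 and L1 were the lowest of the 10, and L2 and H1 the highest. The group means were 9.20 ± 0.34 and 9.11 ± 0.35 in H and L (SD, n = 5). The difference of 0.09 (standard error 0.20) had an interval from -0.35 to 0.53, which holds changes up to 1.44-fold higher and 1.28-fold lower in H. The sign rested on L1, without which the difference was -0.02.

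*APOA1*, the acceptor of the lipid that *ABCA1* exports, had a log2 intensity of 15.12 ± 0.07 in H and 15.23 ± 0.10 in L (SD, n = 5 for both). Its difference was -0.11 with a standard error of 0.07, and like *APOB* it lay close to the top of the scale. *NR1H3*, the oxysterol receptor LXR alpha that induces *ABCA1*, measured 9.00 ± 0.18 in H and 9.25 ± 0.20 in L. Its difference of -0.24 (standard error 0.12) had an unadjusted limma p of 0.0668 and an adjusted p of 0.985. The groups overlapped for both genes.

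*LCAT*, lecithin-cholesterol acyltransferase, esterifies the cholesterol of young HDL particles so that they become spherical. Its values were 11.31, 11.46, 11.02, 10.94 and 11.20 in H1 to H5. In L1 to L5 they were 11.30, 11.19, 10.72, 11.80 and 11.22. The lowest and the highest animal of the 10 were both in L, L3 and L4, which lay 2.11-fold apart, while the H animals lay between them. With means of 11.19 ± 0.21 in H and 11.25 ± 0.38 in L (SD, n = 5), the difference was -0.06 (standard error 0.18, interval from -0.46 to 0.34). Without L4 it was 0.08.

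Remodelling of HDL in the plasma was represented by *PLTP* and *LIPC*. *PLTP*, the phospholipid transfer protein that carries phospholipid between particles and enlarges HDL, was dim and nearly level: 4.78, 4.83, 4.67, 4.79 and 4.80 in H1 to H5 and 4.80, 4.75, 4.89, 4.82 and 4.80 in L1 to L5. Only H3 and L3 stood a little away, at the low and the high end. The whole range was 0.22 log2 units, or 1.16-fold, and the SD over the animals was 0.06. The means of 4.77 ± 0.06 in H and 4.81 ± 0.05 in L (SD, n = 5) differed by -0.04 (standard error 0.06, interval from -0.18 to 0.10). The other *PLTP* probe set, at the lowest value, gave no second reading.

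*LIPC*, hepatic lipase, hydrolyses phospholipid and triglyceride of HDL and of remnant particles at the liver surface. In H1 to H5 its log2 intensity was 8.26, 7.76, 8.20, 7.77 and 8.30. In L1 to L5 it was 7.41, 8.35, 7.98, 8.47 and 7.60. L held the extremes, with L1 and L5 below every H animal and L2 and L4 above every H animal. The means were 8.06 ± 0.27 and 7.96 ± 0.46 (SD, n = 5 for H and for L), and their difference was 0.10 (standard error 0.22, interval from -0.39 to 0.58). It was -0.04 without L1.

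*LIPC* was set beside a control for RNA integrity on the array. The difference between the 3' and the 5' control probe sets of *GAPDH* grows as RNA is degraded, and its log2 value was 1.96 ± 0.28 in the H animals and 1.99 ± 0.42 in the L animals (SD, n = 5 for both), with p = 0.897 in a two-sided exact permutation test. Over the 10 animals *LIPC* had a Pearson's r with that difference of -0.69, for which a permutation test gave p = 0.0210, while Spearman's rho was -0.65 with a permutation p of 0.0484. Adjusted over the 42 relations of members with cell type markers and this control, the p was 0.602 for r and 0.771 for rho. Without H2 and L1, the animals farthest from the median control difference, r was -0.29, so the relation rests on them. The other 2 pairs of *GAPDH* control probe sets gave an r of -0.56 and -0.70 for *LIPC*, and with them *SCARB1* lay farther from 0, at 0.71 and 0.77. The part of RNA integrity in the *LIPC* values was not tested.

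*SCARB1* encodes SR-BI, the receptor through which the hepatocyte takes cholesteryl ester from HDL. Its values were 8.76, 9.09, 8.11, 8.52 and 8.49 in H1 to H5 and 9.00, 8.60, 8.62, 9.26 and 9.10 in L1 to L5. The lowest 3 animals were H3, H5 and H4, whereas H2 was the third highest, so the groups overlapped. The means were 8.59 ± 0.36 in H and 8.91 ± 0.29 in L (SD, n = 5). The difference of -0.32 (standard error 0.19) had an interval from -0.75 to 0.10, which holds values from 1.68-fold lower to 1.08-fold higher in H. The unadjusted limma p was 0.124 and the exact permutation p 0.159, two-sided. Of the members this was the second largest difference after *PON3*. Over the animals left out in turn it lay between -0.44 without H2 and -0.20 without H3, and only without H2 did the unadjusted p of limma pass 0.05. *PDZK1*, the scaffold protein that holds SR-BI at the membrane, measured 11.47 ± 0.12 in H and 11.56 ± 0.17 in L, a difference of -0.08 (standard error 0.10).

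*PON3*, a paraoxonase and lactonase that the liver secretes and that travels on HDL, varied most of the members. Its values were 11.67, 9.28, 7.97, 11.86 and 13.22 in H1 to H5 and 12.20, 8.93, 7.65, 7.30 and 8.58 in L1 to L5. This rests on 1 probe set, and whether the transcript or only the signal of that probe set varied was not tested. From the lowest animal, L4, to the highest, H5, the signal spanned 5.92 log2 units, or 60.7-fold, and its SD of 2.16 was reached or passed by 8 of the 4730 measured genes, *PON3* included. The animals fell into 2 ranges. The higher range held H1, H4, H5 and L1, and the lower held H2, H3, L2, L3, L4 and L5. Between the lowest animal of the higher range, at 11.67, and the highest of the lower, at 9.28, lay a gap of 2.39 log2 units, or 5.24-fold, whereas the next largest gap between neighbouring animals was 1.02.

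Both groups held animals of both ranges, 3 H and 1 L animal above the gap and 2 H and 4 L animals below it. The group means were 10.80 ± 2.12 in H and 8.93 ± 1.95 in L (SD, n = 5), and the medians 11.67 and 8.58. The difference of 1.87 (standard error 1.14) had an unadjusted limma p of 0.130, an adjusted p of 0.985 and an exact permutation p of 0.167, two-sided. Its 95% confidence interval ran from -0.66 to 4.39, from 1.57-fold lower to 21.0-fold higher in H, so the direction was not resolved with 5 animals in each group. On ranks, H had a mean rank of 6.8 and L one of 4.2 (p = 0.222, exact permutation test). Single animals moved the difference from 1.26 without H5 to 2.69 without L1, and without H3 it was 2.58. Without L1 and without H3 the unadjusted p of limma was under 0.05, while the adjusted p was 0.949 and 0.998.

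**Figure D2:**
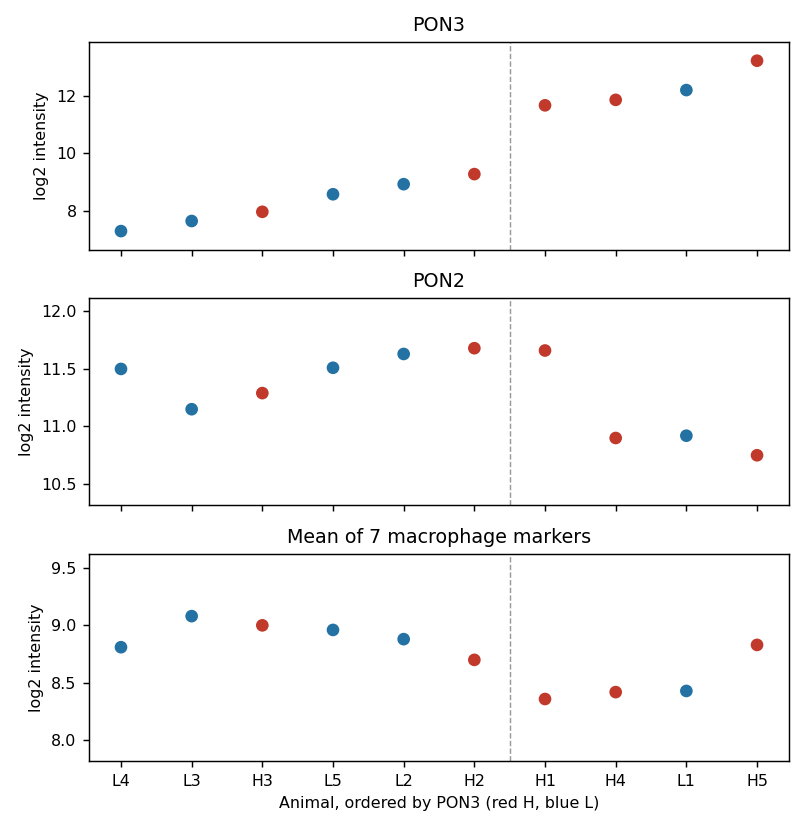
Log2 intensity (y axes) of PON3, of PON2 and of the mean of 7 macrophage markers in each of the 10 animals, ordered along the x axis by PON3 from the lowest to the highest (red H, blue L). The dashed line marks the gap of 2.39 log2 units in PON3, with 6 animals before it and 4 after it.

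*PON2* is the third paraoxonase and, unlike *PON3*, stays inside the cell. The 3 paraoxonase genes are neighbours in the pig name table used here, with *PON3* between *PON1* and *PON2* in order. *PON2* measured 11.66, 11.68, 11.29, 10.90 and 10.75 in H1 to H5 and 10.92, 11.63, 11.15, 11.50 and 11.51 in L1 to L5. The lowest 3 animals for *PON2*, H5, H4 and L1, were the highest 3 for *PON3*, whereas H1, also of the higher *PON3* range, had the second highest *PON2*. Within the 6 animals of the lower *PON3* range the genes ran the other way, with an r of 0.70 and a rho of 0.83 (exact permutation test of r, p = 0.132, n = 6). The difference between H and L was -0.09 (standard error 0.21) for *PON2*. This comparison was added after the data were seen.

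The macrophage markers are given beside *PON3* because their lowest animals are among those with most *PON3*. Of 16 listed markers 9 had a probe set and 7 were measured (*CD163*, *CD14*, *VSIG4*, *C1QA*, *C1QC*, *AIF1* and *CD74*), while *MARCO* and *ITGAM* lay at the lowest value, 2.19. Their mean was lowest in H1, H4 and L1, at 8.36, 8.42 and 8.43, which are 3 of the 4 animals of the higher *PON3* range. H5, the animal with most *PON3*, was at 8.83, inside the span of 8.70 to 9.08 of the 6 animals in the lower range. Between the groups the mean ranged from 8.36 to 9.00 in H and from 8.43 to 9.08 in L, with p = 0.302 in an exact permutation test. The pattern was not particular to macrophage markers. The hepatocyte marker mean was lowest in H5, H4 and H1, at 14.29, 14.31 and 14.38, also animals of the higher *PON3* range. L1, the remaining animal of that range, was at 14.48, while L3, of the lower range, was close to H1, at 14.39. The part of macrophage or hepatocyte RNA in the *PON3* values was not tested.

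**Figure D3:**
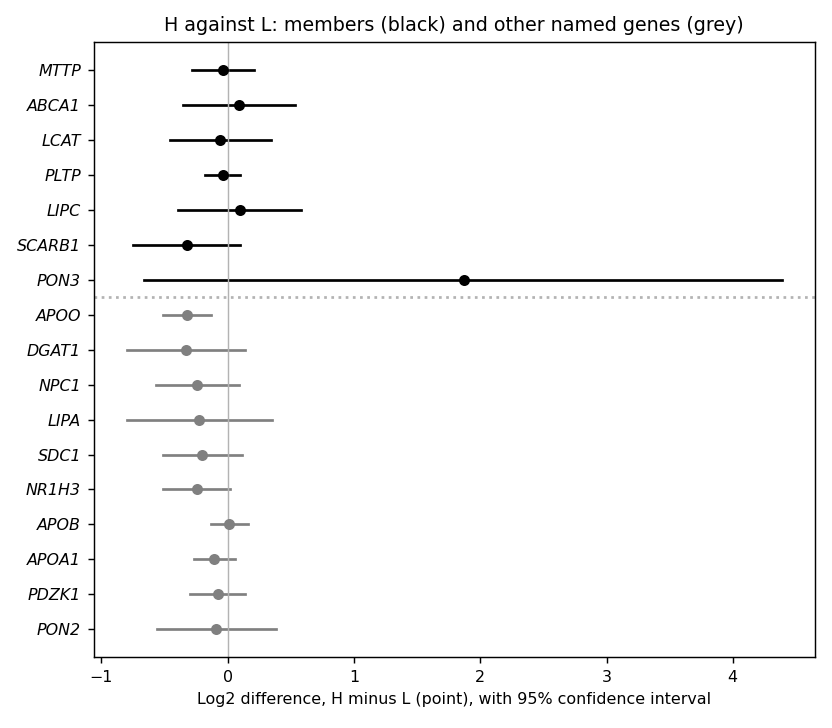
Log2 difference between the H and L groups (x axis, H minus L, points) with its 95% confidence interval from limma (n = 5 H and n = 5 L) for the 7 members (black) and 10 other named genes of lipoprotein metabolism (grey). The intervals of all 7 members cross 0, and that of PON3 is the widest, from -0.66 to 4.39. Of the 17 genes only APOO has an interval that lies on one side of 0. This follows from the naming rule, since APOO was named for an unadjusted p under 0.05.

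Co-variation among the members was read over the 10 animals. Because *PON3* falls into 2 ranges, no r over all 10 animals is given for it. Among the 15 pairs of the other 6 members, r lay between -0.36 (*MTTP* and *LIPC*) and 0.71 (*LCAT* and *SCARB1*), with 8 pairs below 0 and 7 above and a median absolute r of 0.23, against 0.27 over all pairs of measured genes. An absolute r of at least 0.7 was reached by 1 of the 15 pairs (6.67%), and by 4.48% of the 11169901 pairs of 4727 genes. A share from 15 pairs that share animals and genes is not a result about the members. No pair had an adjusted p under 0.05 by r or by rho, and 1 of the 21 pairs of all 7 members had an unadjusted p under 0.05.

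That pair joins the enzyme that esterifies HDL cholesterol with the receptor that takes it up. *LCAT* and *SCARB1* had an r of 0.71 (permutation test, p = 0.0196, adjusted over 21 pairs p = 0.413). Their rho was 0.73 (permutation test, p = 0.0199, adjusted p = 0.417). H3 and H4 were low for both genes and L4 and H2 high for both, whereas L3 had the lowest *LCAT* with a *SCARB1* value near the middle. Without L3 and L4, the animals farthest from the median of *LCAT*, r was 0.75 (exact permutation test, p = 0.0315), and without H3 and L4, the farthest for *SCARB1*, it was 0.60 (exact permutation test, p = 0.118). With each gene centred within H and within L, r was 0.76. Leaving out single animals moved r between 0.58 without L4 and 0.79 without L3. With the *GAPDH* control difference the r was 0.36 for *LCAT* and 0.56 for *SCARB1* (permutation tests, p = 0.296 and 0.0961). With the other 2 control pairs it was 0.50 and 0.48 for *LCAT* and 0.71 and 0.77 for *SCARB1*. The part of RNA integrity in the co-variation of this pair was not tested.

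**Figure D4:**
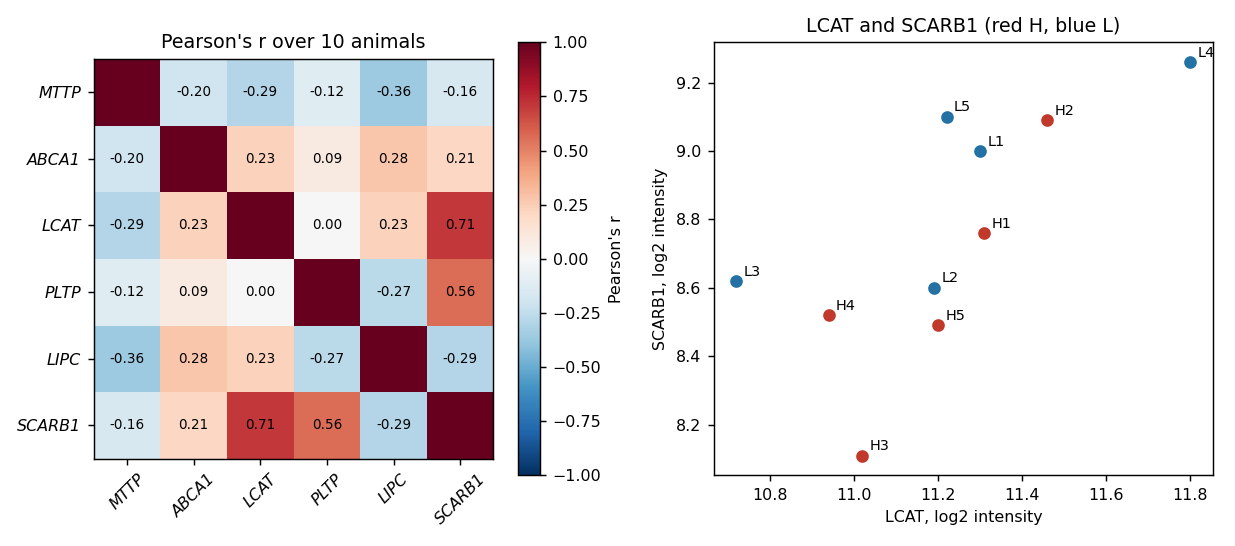
Left, Pearson's r over the 10 animals between the 6 members other than PON3 (colour scale from -1 to 1, with the value in each cell). Right, SCARB1 against LCAT in log2 intensity, 1 point per animal (red H, blue L); r is 0.71, with L4 at the upper end for both genes and H3 lowest for SCARB1.

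The other pairs were weaker or hung on 1 animal. *PLTP* and *SCARB1*, a transfer protein and a receptor of HDL, had an r of 0.56 (permutation test, p = 0.0872, adjusted p = 0.915), which was 0.16 without H3 and 0.82 without L3. *PLTP* and *ABCA1* had an r of 0.09, which became -0.64 without H3 and 0.39 without L3. H3 was the lowest animal for *ABCA1*, *PLTP* and *SCARB1*. *MTTP*, the VLDL gene, had an r below 0 with each of the 5 HDL genes other than *PON3*, from -0.12 with *PLTP* to -0.36 with *LIPC*, of which none passed the test. These 5 r share the same *MTTP* values, so their common sign is not a result about VLDL and HDL genes. Over the 6 animals of its lower range, *PON3* had an r between -0.52 with *MTTP* and 0.55 with *ABCA1* (exact permutation tests, p = 0.281 and 0.268, n = 6, adjusted p of at least 0.622 over the 6 members).

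The genes most like each member over the 10 animals are given as a description, chosen by the highest Pearson's r among the 2745 or 2746 measured genes with an SD of at least 0.2, and no p is attached. *MTTP* ran closest with *PARG*, *SEC23A* and an uncharacterised locus, *LOC100514924*, with an r from 0.86 to 0.87. *SEC23A* is a coat protein of the vesicles that leave the endoplasmic reticulum and belongs to the list of VLDL secretion genes. *LCAT* ran closest with the kinase *ARAF* (r = 0.93), the folate enzyme *MTHFD1* (0.91) and *DDT* (0.85). *LIPC* ran closest with *VNN1*, the pantetheinase vanin 1 (r = 0.90), with *MOV10* (0.85) and with *PARL* (0.84).

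*ABCA1* was closest to *LIAS*, lipoic acid synthase (r = 0.86), *DHRS11* (0.83) and *OGDHL* (0.82). *SCARB1* was closest to *NFYC*, a subunit of a CCAAT-binding factor (r = 0.87), to *COASY*, the coenzyme A synthase (0.87), and to *ACP6* (0.86). For *PLTP* they were the proteasome gene *PSMD10* (r = 0.95), *NUTF2* (0.92) and the spermidine synthase *SRM* (0.92), although *PLTP* itself moved over 0.22 log2 units in all. For *PON3* the rule named *HNRNPH2*, *TRAPPC1* and *CLK4*, whose r is not given because of its 2 ranges. Of the 2745 or 2746 genes compared, an r of at least 0.7 was reached by 19 for *ABCA1*, 24 for *LIPC*, 49 for *MTTP*, 54 for *LCAT*, 72 for *SCARB1* and 113 for *PLTP*. Over all pairs of measured genes, 4.48% had an absolute r of at least 0.7, which also counts r below 0 and genes with an SD under 0.2. The counts were not tested and are not a result about the members.

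No other gene of the lipoprotein pathway passed the test between H and L on the arrays. The paper's RNA sequencing of the same animals listed *APOB*, *APOA2* and *ABCG8* as higher in H. It used another platform and its own cut-off on fold change and p-value. The paper also measured *APOA2* by RT-qPCR, which correlated with its sequencing values. On the arrays *APOB* lay near the top of the scale. Of 104 other genes listed in 6 groups, 54 were measured, of which 19 had a difference above 0 and 35 below 0, with a median of -0.09 on the log2 scale. Over all genes 62.8% lay below 0, with a median of -0.04. None had a limma adjusted p under 0.05, and 1 of the 54 (1.85%) had an unadjusted p under 0.05, beside 2.64% of all genes. That gene was *APOO*, an apolipoprotein that is also a protein of the mitochondrial inner membrane. It measured 5.22, 5.37, 5.36, 5.34 and 5.36 in H1 to H5 and 5.57, 5.75, 5.70, 5.43 and 5.80 in L1 to L5. All 5 H animals lay below all 5 L animals, a difference of -0.32 with a standard error of 0.08. Its limma p was 0.00343 before and 0.985 after adjustment (adjusted p). The exact permutation p was 0.00794, the smallest that 252 divisions of the animals allow. The difference of *APOO* was known from earlier results of these data and is not independent evidence. *APOO* is named because its unadjusted p was under 0.05, so the separation of its groups is not a further finding. The share of all genes whose groups separate fully is not given here.

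By group, the apolipoproteins, the protein part of the particles that the members build and remodel, had 3 of 11 measured genes above 0 and 8 below, with a median of -0.11. The examples that follow, other than those already named and *DGAT1*, *NPC1*, *LIPA* and *SDC1*, were chosen after their values were seen. *APOE*, the ligand of remnant receptors, was at -0.18 (standard error 0.08, unadjusted p in limma 0.0535), *APOA4* at -0.83 (standard error 0.55) and *APOA2*, a main protein of HDL, at 0.28 (standard error 0.36). The genes of VLDL assembly and secretion, which surround *MTTP*, had 4 of 15 above 0 and 11 below, with a median of -0.10. Among them *DGAT1*, an enzyme of triglyceride synthesis, was at -0.33 (standard error 0.21), and the carboxylesterase *CES1* was at -0.40 (standard error 0.34). *SAR1B*, the GTPase of the vesicles that carry VLDL, was at 0.02 (standard error 0.09).

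The genes of HDL formation and cholesterol efflux, the surroundings of *ABCA1* and *LCAT*, had 5 of 9 above 0 and 4 below, with a median of 0.00. *NPC1*, the lysosomal cholesterol exporter, was at -0.24 (standard error 0.15) and *ABCG8*, a sterol transporter of the bile, at 0.03 (standard error 0.20). The list of lipases and their regulators had 3 measured genes, all below 0: *ANGPTL4* at -0.32 (standard error 0.40), *LIPA* at -0.23 (standard error 0.26) and *PNPLA2* at -0.03 (standard error 0.11). The receptors and uptake genes, to which *SCARB1* belongs by function, had 2 of 7 above 0 and 5 below, with a median of -0.17. *SDC1*, a heparan sulfate proteoglycan that binds remnants, was at -0.20 (standard error 0.14) and *SCARB2*, a lysosomal relative of *SCARB1*, at 0.19 (standard error 0.18). Of the nuclear regulators of the members, 5 of 9 were above 0 and 4 below, with a median of 0.03, from *NR1H3* at -0.24 to *FOXO1* at 0.25 (standard error 0.16). *HNF4A*, the hepatocyte factor that drives many of these genes, was at 0.21 (standard error 0.24).

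**Figure D5:**
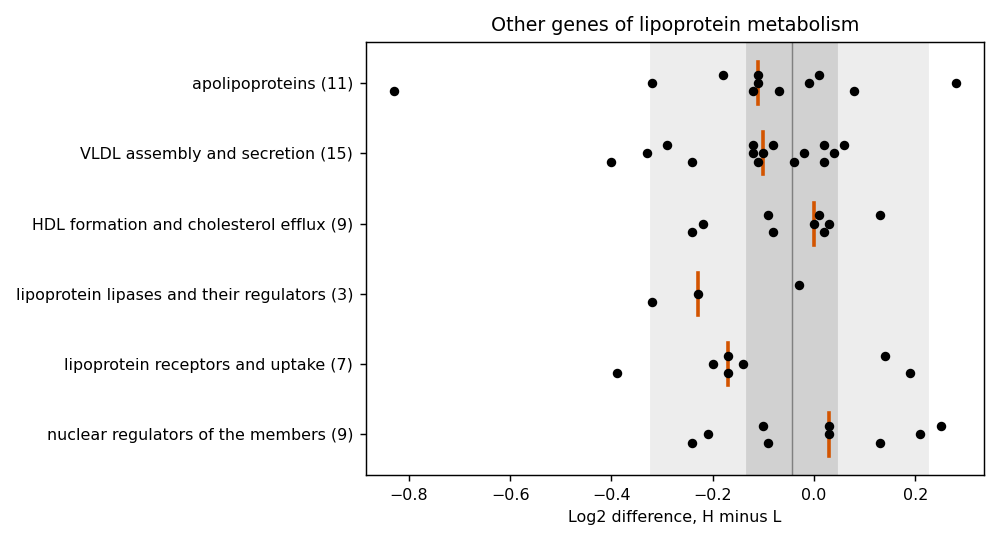
Log2 difference between the H and L groups (x axis, H minus L) of 54 other genes of lipoprotein metabolism in 6 lists (rows, with the number of measured genes), 1 point per gene, shifted up or down only to separate points, with the list median in orange (n = 5 H and n = 5 L). The grey line marks the median of all 4730 genes, the dark band the range from the quartile at -0.132 to that at 0.046, and the light band the range from -0.321 to 0.226 between the quantiles at 5% and 95%.

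The tissue was checked against its markers. All 14 hepatocyte markers with a probe set were measured, and their mean lay between 14.29 and 14.60 in H and between 14.39 and 14.48 in L on the log2 scale (p = 0.881, exact permutation test). Markers of endothelial cells (5 measured of 15 listed, with *KDR*, *TIE1* and *VWF* at 2.19, 2.22 and 2.70), of stellate cells and fibroblasts (11 of 16) and of cholangiocytes (3 of 10, with *KRT19* at 2.21 and *SOX9* and *CFTR* at 2.19) did not separate the groups (exact permutation tests, p = 0.722, 1.0 and 0.429). Of the lymphocyte markers 2 of 17 were measured, and of the red blood cell markers 1 of 10. Of the 42 relations between the 7 members and these lists or the *GAPDH* control, none passed the threshold after adjustment, with 0.602 as the smallest adjusted p. Array pairs correlated with an r of 0.990 to 0.996 over all probe sets. In the *GAPDH* control difference L1 was highest, at 2.70, beside 1.68 to 2.39 in the other animals.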

How the data were processed

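Liver RNA of 10 animals, 5 H and 5 L, was hybridised to 1 Affymetrix array each. Scanning with GCOS, background adjustment and normalization with the gcrma package were done by the authors. GCOS, GCRMA and RMA stand in the submitters' processing notes, and their versions are not given in the sources used here. Log2 intensities of 24123 probe sets make up the deposited table; it was not normalized further, and array medians lay between 3.77 and 3.84. After 124 control probe sets were left out, 23999 remained. The platform annotation, with symbols updated by Entrez ID in a pig name table of a later assembly, gave 1 symbol to 10069 probe sets and several to 198, and covered 6765 genes. Coordinates are not printed.

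The contrast of H with L was fitted in R 4.3.3 by lmFit and eBayes of limma 3.58.1, two-sided and with no covariate, over the 4730 genes that passed the limit of 4, with Benjamini-Hochberg adjustment over all of them and a threshold of 0.05. The same fit over probe sets gave an adjusted p of 0.991 for each member. Differences are H minus L, with limma's moderated standard error and 95% confidence interval. Correlations were tested with 100000 permutations, or exactly under 10 animals, with scipy 1.17.1, numpy 2.4.6 and pandas 2.3.3 under Python 3.11.15, and plots used matplotlib 3.10.9. Each script that tests many genes was tested on simulated data.

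The members, the gene lists, the tests and the naming rule were chosen with earlier results of these data known. The rule names all members, in each list the genes with an unadjusted p under 0.05, or else the gene with the smallest p, the 3 genes most like each member, and *APOB*, *APOA1*, *P4HB*, *PDZK1* and *NR1H3*; 1 further gene that the rule names is not reported here. The alternatives were other limits on dim probe sets, quantile normalization, median centring, array weights, a block by animal number, a covariate for the *GAPDH* control, a trended robust prior, the brightest or median probe set, rank and group-centred correlations, and leaving out each animal. The exact permutation test and the fit over probe sets were counted among them. The pairs of *PON3* in its lower range, *PON2*, the ranks of *PON3* and 2 further *GAPDH* control pairs were added after the data were seen. Arrays give no read depth, and 5 arrays in each group limit the precision.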

Additional observations from a re-analysis of the deposited data

Results flagged for a closer look

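Within a group of 5 animals, 2 values of genes around the members lay apart, in that the gap to the nearest animal was a larger part of the group's range than Dixon's 95% limit of 0.71. For *APOO*, H1 at 5.22 was below the next H animal at 5.34, a gap of 0.781 of the range. For *SDC1*, L3 at 8.01 was below the next L animal at 8.28, a gap of 0.73 of the range. Chance alone marks about 1 in 20 groups, and 46 groups of 5 were examined, 2 for each named gene and each mean of markers. No H or L group of a member had such an animal.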

How the results depend on the processing

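The count of members past the adjusted threshold was 0 in all 23 alternatives. At an unadjusted p under 0.05 it was 0 to 1 when single animals were left out, and 1 without H2 (*SCARB1*), H3 or L1 (both *PON3*). The sign of *PON3*, *SCARB1* and *PLTP* held in each setting, with *PON3* between 1.26 and 2.69, *SCARB1* between -0.44 and -0.20 and *PLTP* between -0.05 and -0.01. Not all settings could move these values, because each member rests on 1 used probe set. The limit of 3, the brightest or median probe set and the fit over probe sets left the member differences unchanged. The exact permutation test, whose smallest possible p is 0.00794, had little room to pass an adjusted threshold. Differences within their standard error turned sign for *MTTP* (0.02 without H1, 0.01 without H2), *LCAT* (0.08 without L4), *LIPC* (-0.04 without L1) and *ABCA1* (-0.02 without L1). With a limit of 6, *PLTP* was not measured. Other scalings moved the median of all genes from -0.043 to -0.025 (quantile) and -0.026 (median centring). Of the other pathway genes 1 had an unadjusted p under 0.05, against 2 with no filter, a limit of 3, quantile normalization or array weights, 3 with the trended robust prior, 0 with a limit of 6, and 1 to 5 without single animals (5 without H2). Each animal number holds 1 H and 1 L animal, so the replicate block could not move a difference, only its p. With it *PON3* was at 1.87 by design (limma adjusted p = 0.994), and the count of members was 0. Deviations of animals with the same number had an r from -0.237 to 0.281 over the 5 numbers. Of 10 animals, 2 correlated best with their own number. These values cannot show whether some numbers join sibs. No pair of members and no relation with markers passed the adjusted threshold in any alternative. The cause of these shifts was not tested. The number of arrays limits what could be seen, and *PLTP* rests on the 1 of its 2 probe sets with signal above the lowest value.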
